A study of Mus musculus with 12 samples.

Results

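The 8 genes Slfn9, Fmr1nb, Arhgap30, Pdlim2, R3hdml, C1qtnf6, Nsg2 and Ddit4l were picked from 24495 counted genes because they differed between a cathepsin L knockdown line and its control in these libraries, and their course over differentiation in both lines is described here. CCE-Nanog-GFP mouse embryonic stem cells (mESCs), which carry a green fluorescent reporter of the pluripotency gene Nanog, received by lentivirus either a scramble shRNA (shSC, labelled scr or WT) or an shRNA against the lysosomal protease cathepsin L (shCTSL, labelled KD or CTSL KD). Poly(A) RNA was sequenced on Day 0, from mESCs kept with LIF on gelatin-coated plates, and on Day 2 and Day 4, from embryoid bodies grown in rotation without LIF and with all-trans retinoic acid. Each line gave 2 libraries a day, 12 in all. GFP-positive cells were sorted before experiments, the stable lines were selected with puromycin, and 1 line stands for each condition. Whether a line was a single clone was not given in the sources used here, nor was it given which of several cathepsin L shRNAs was sequenced. The effect of the shRNA therefore cannot be told apart from other differences between these 2 lines.

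The 8 genes belong to no common pathway. Arhgap30 is a GTPase-activating protein, Pdlim2 promotes the degradation of STAT and NF-kB transcription factors, and Ddit4l inhibits the growth kinase complex mTORC1. Slfn9 is one of the mouse Schlafen genes, which are known from lymphocyte growth and the interferon response. Nsg2 is a membrane protein of neuronal endosomes, Fmr1nb is an X-linked gene whose human counterpart is a cancer and testis antigen, and R3hdml and C1qtnf6 carry the domains of secreted proteins. Retinoic acid added on withdrawal of LIF is a standard way to take mESCs out of pluripotency.

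Levels are given as CPM, the counts of a gene relative to the library total after TMM scaling, and changes as log2 fold changes with their standard errors (SE). A change was called when edgeR's quasi-likelihood test gave an adjusted p below 0.05 over 15532 tested genes and the fold was at least 1.5. All 8 genes passed the filter on low counts. The totals ran from 11171111 to 27155553 counts per library. The SD of the log2 ratio between the 2 replicates over all genes was 0.178 to 0.269 in 5 groups and 0.604 in shCTSL at Day 2, whose libraries stood apart. Ctsl, the target of the shRNA, was at 142 ± 7.15 CPM (SD, n = 2) in shSC and 38.4 ± 1.23 CPM in shCTSL at Day 0, and at 453 ± 42.9 and 255 ± 3.31 CPM at Day 4. The summed level of 7 pluripotency markers at Day 0 was 5628 to 5810 CPM in shSC and 5292 to 5372 CPM in shCTSL. By their means 6 of the 7 were lower in shCTSL that day and 1 was higher. At Day 4 the sum was 291.5 to 336.4 CPM in shSC and 258.7 to 305.0 CPM in shCTSL, with none of the markers at 0. In bulk RNA, fewer cells of a type and less RNA per cell cannot be told apart.

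The members were chosen on the difference between the lines, so that difference is described with no test. The change with time averaged over the lines was tested. Its contrast does not contain that difference. It shares the libraries and each gene's estimate of the spread with it, so its p-values are not fully independent of the choice. Changes within a line were also tested, but they share libraries with the comparisons that picked the genes, so their p-values are not independent of that choice. Whether a change with time differed between the lines was not tested. In the mean of both lines, 4 members rose by Day 4 against 34.2% of all genes tested, and 3 fell against 29.5%. Fmr1nb, C1qtnf6, Nsg2 and Ddit4l were the members that rose, and Slfn9, Arhgap30 and R3hdml those that fell. Between Day 0 and Day 2, 4 members rose (background 32.1%) and 2 fell (26.3%). Between Day 2 and Day 4, 2 members rose (13.2%) and 3 fell (14.8%). Within shSC, 5 members changed by Day 2 where 54.6% of all genes did, 4 from Day 2 to Day 4 (23.8%), and 7 from Day 0 to Day 4 (60.7%). Within shCTSL the corresponding counts were 6 (55.5%), 2 (23.4%) and 6 (59.9%). Most of all genes tested also changed by Day 4, so a call in that step was not particular to these genes. The 2 calls from Day 2 to Day 4 in shCTSL were both lost with limma-voom and sample quality weights, and when only the compared libraries were fitted.

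**Figure D1:**
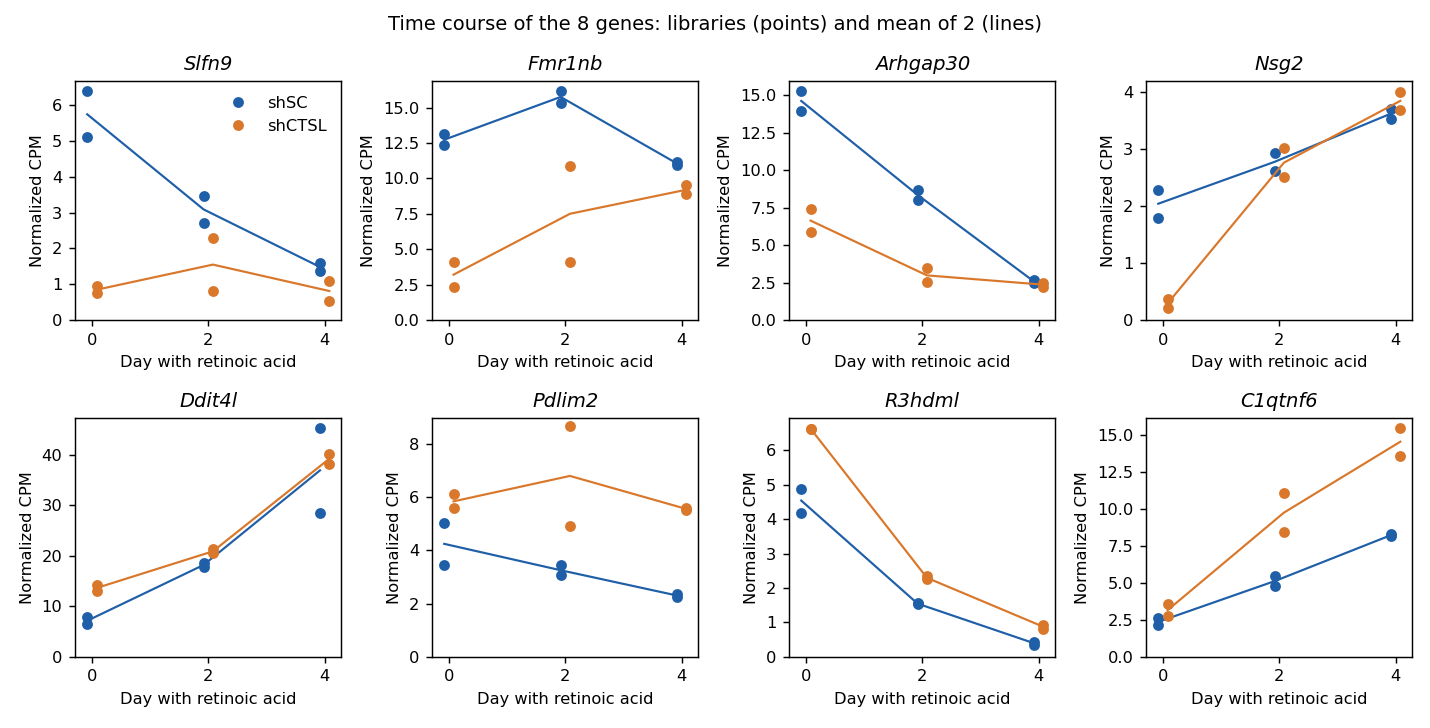
Normalized CPM of the 8 genes (vertical axis, linear from 0) against the day with retinoic acid (horizontal axis), with each library as a point, slightly offset, and the mean of the 2 libraries of a group joined by a line, shSC in blue and shCTSL in orange. The lines of Nsg2, Ddit4l and Arhgap30 are apart at Day 0 and meet by Day 4, whereas those of Pdlim2, R3hdml and C1qtnf6 stay apart on all 3 days.

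Arhgap30, a GTPase-activating protein known best from blood cells (chr1:173319085-173340429 in mm9, plus strand), fell in both lines from different starting levels. In shSC its 2 libraries were at 13.9 and 15.3 CPM at Day 0, at 8.0 and 8.71 CPM at Day 2 and at 2.65 and 2.50 CPM at Day 4. In shCTSL they were at 7.38 and 5.90 CPM, then at 2.52 and 3.45 CPM, and finally at 2.22 and 2.51 CPM. Every shCTSL library was below every shSC library on Day 0 and Day 2, and the lines overlapped on Day 4. The log2 fold change from Day 0 to Day 4 was -2.50 in shSC (SE 0.20, adjusted p = 1.66e-06), and shCTSL gave -1.50 (SE 0.21, adjusted p = 0.000103). The mean of both lines fell by 2.0 over the 4 days (SE 0.14, adjusted p = 4.06e-07). On the log2 scale most of the fall in shSC came from Day 2 to Day 4 (-1.69, SE 0.19, adjusted p = 0.00016). In CPM the shSC step to Day 2 was slightly the larger (means of 14.6, 8.35 and 2.57 CPM). In shCTSL most of the fall came from Day 0 to Day 2 (-1.14, SE 0.20, adjusted p = 0.000624), and the later step was -0.35 (SE 0.21, adjusted p = 0.241). That first call in shCTSL was lost with voom (-1.15, adjusted p = 0.0897). The shCTSL mean was 45.4% of the shSC mean at Day 0, 35.7% at Day 2 and 91.8% at Day 4. Of 6 blood cell markers, the summed level at Day 0 was 179.5 to 180.9 CPM in shSC and 186.7 to 191.5 CPM in shCTSL, with Csf1r at 0 in every Day 0 library. Laptm5 made up most of that sum (148.4 CPM in shSC and 164.6 CPM in shCTSL), and the other 4 detected markers were lower in shCTSL by their means, as Arhgap30 was: Ptprc, Cd68, Coro1a and Spi1. The part of blood cells in the Arhgap30 level was not tested.

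Pdlim2, the PDZ and LIM domain protein that limits STAT and NF-kB signalling (chr14:70564025-70577488, minus strand), was higher in shCTSL on all 3 days, by a ratio that was larger at Day 2 and Day 4 than at Day 0. The shSC libraries held 5.03 and 3.47 CPM at Day 0, 3.45 and 3.06 CPM at Day 2 and 2.25 and 2.36 CPM at Day 4. The shCTSL libraries held 6.11 and 5.58 CPM, 8.67 and 4.94 CPM, and 5.52 and 5.61 CPM. No library of either line overlapped the other on any day, and the widest pair was that of shCTSL at Day 2. Pdlim2 fell in shSC from Day 0 to Day 4 (log2 fold change -0.87, SE 0.30, adjusted p = 0.0242). In shCTSL the same step was -0.076 (SE 0.27, adjusted p = 0.815), and the mean of both lines missed the threshold (-0.47, SE 0.20, adjusted p = 0.0523), but was called with length offsets (-0.73, adjusted p = 0.00994). The call in shSC was lost on leaving out its first Day 0 library (-0.60, adjusted p = 0.17), its first Day 4 library (-0.84, adjusted p = 0.105) or its second (-0.90, adjusted p = 0.0684), where first and second stand for replicates 1 and 2. The shCTSL mean was 138% of the shSC mean at Day 0, 209% at Day 2 and 241% at Day 4. On the log2 scale the fitted Day 2 difference was 0.60 without the first shCTSL library of that day and 1.4 without the second.

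Ddit4l, also called REDD2, an inhibitor of mTORC1 related to the stress gene Ddit4 (chr3:137284576-137291297, plus strand), rose at every step in both lines. Its promoter is shown because its Day 0 level was the one furthest above shSC among the 8 genes. The 250 bases before its RefSeq start lie at chr3:137286386-137286635 on the plus strand of mm9, inside an intron of the longer GENCODE model, and capitals mark GC boxes (GGGCGG or its reverse complement) and a nuclear receptor element (AGGTCA, here as its reverse complement).
Ddit4l promoter: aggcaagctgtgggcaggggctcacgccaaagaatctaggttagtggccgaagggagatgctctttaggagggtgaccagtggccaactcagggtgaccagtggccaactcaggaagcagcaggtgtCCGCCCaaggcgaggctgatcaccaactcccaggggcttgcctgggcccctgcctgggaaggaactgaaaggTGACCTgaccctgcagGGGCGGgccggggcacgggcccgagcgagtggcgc
In shSC the libraries were at 6.40 and 7.87 CPM at Day 0, at 18.5 and 17.8 CPM at Day 2 and at 45.4 and 28.4 CPM at Day 4. In shCTSL they went from 14.2 and 13.1 CPM to 21.3 and 20.5 CPM and then 40.1 and 38.3 CPM. Both shCTSL libraries lay above both shSC libraries on Day 0 and Day 2, and on Day 4 they lay inside the wide shSC pair. By Day 4 Ddit4l had risen by 2.37 log2 units in shSC (SE 0.21, adjusted p = 4.28e-06). The rise in shCTSL was 1.52 (SE 0.20, adjusted p = 8.34e-05). In the mean of both lines it was 1.95 (SE 0.15, adjusted p = 6.45e-07). The step to Day 2 in shCTSL was the smallest of its calls (0.61, SE 0.20, adjusted p = 0.0232). It was lost without the first shCTSL library of Day 0 (0.68, adjusted p = 0.0678) or the second (0.56, adjusted p = 0.111). It was also lost with voom (0.60, adjusted p = 0.254), with only the compared libraries (0.63, adjusted p = 0.0609) and with length offsets (0.40, adjusted p = 0.0934). The later step in shCTSL (0.91, SE 0.19, adjusted p = 0.0062) was lost with voom (0.91, adjusted p = 0.205) and with only the compared libraries (0.89, adjusted p = 0.0502). The shCTSL mean was 191% of shSC at Day 0, 115% at Day 2 and 106% at Day 4.

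Slfn9, a long Schlafen protein gene (chr11:82793131-82805332, minus strand), was highest in shSC at Day 0 among the 6 groups. Its promoter is shown because Slfn9 had one of the 2 lowest shCTSL to shSC ratios at Day 0. The window is chr11:82805333-82805582 on the minus strand, outside any annotated gene. Capitals mark a GC box (as its reverse complement) and, at -45 to -36 from the start, the reverse complement of GAAA, any pair of bases and GAAA again, the core bound by interferon regulatory factors.
Slfn9 promoter: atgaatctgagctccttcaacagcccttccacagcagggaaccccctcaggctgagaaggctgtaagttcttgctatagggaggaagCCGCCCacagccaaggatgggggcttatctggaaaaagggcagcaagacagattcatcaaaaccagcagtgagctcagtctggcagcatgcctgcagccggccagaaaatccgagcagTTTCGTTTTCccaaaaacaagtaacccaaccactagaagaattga
The shSC libraries were at 5.11 and 6.38 CPM at Day 0, at 2.72 and 3.46 CPM at Day 2 and at 1.37 and 1.59 CPM at Day 4. The shCTSL libraries were at 0.746 and 0.948 CPM, at 0.80 and 2.3 CPM, and at 1.08 and 0.541 CPM. They were below the shSC libraries on every day, and the Day 2 pair rested on 13 and 54 counts. The fitted line difference was -2.78 at Day 0 (SE 0.48), -0.92 at Day 2 (SE 0.39) and -0.87 at Day 4 (SE 0.49). The Day 2 value was -0.41 without the first shCTSL library of that day and -1.93 without the second, and the Day 4 value was -1.43 and -0.44 without the first and the second shCTSL library of Day 4. Pooled counts at Day 0 were 19 against 170, a ratio of 0.143 with a 95% exact interval of 0.0839 to 0.23, which covers counting error only and is no test between the lines. In shSC Slfn9 fell from Day 0 to Day 4 (-1.97, SE 0.40, adjusted p = 0.00137). In shCTSL the same step was -0.053 (SE 0.59, adjusted p = 0.942), and its sign changed with single libraries. The fall by Day 4 in the mean of both lines (-1.01, SE 0.37, adjusted p = 0.0276) was lost on leaving out any of 5 libraries. In shSC these were the second Day 0 library (-0.91, adjusted p = 0.0716) and the first Day 4 library (-0.95, adjusted p = 0.071). In shCTSL they were the first Day 0 library (-1.11, adjusted p = 0.0646), the second Day 0 library (-0.93, adjusted p = 0.0957) and the second Day 4 library (-0.80, adjusted p = 0.087). The early fall in shSC (-0.91, SE 0.35, adjusted p = 0.0451) was lost with RLE scaling (-0.86, adjusted p = 0.0597), with DESeq2 (-0.85, adjusted p = 0.0908) and on leaving out any of 8 libraries (-1.08 to -0.69), all except the Day 2 and Day 4 libraries of shCTSL. The later step in shSC (-1.06, SE 0.40, adjusted p = 0.0729) was not called, nor was it with RLE scaling or DESeq2. It was called with voom (-1.04, adjusted p = 0.00696), with only the compared libraries (-1.09, adjusted p = 0.0025) and without both shCTSL Day 2 libraries (-1.09, adjusted p = 0.00267). In shCTSL the step to Day 2 was 0.96 (SE 0.53, adjusted p = 0.14). Without the first library of that day it was 1.5, and without the second -0.052. The later fall in the mean of both lines (-1.04, SE 0.31, adjusted p = 0.021) was lost with voom (-0.99, adjusted p = 0.124). It was also lost without the second Day 2 library of shSC (-0.95, adjusted p = 0.0642), its first Day 4 library (-0.98, adjusted p = 0.0756), or the second shCTSL library of Day 2 (-0.53, adjusted p = 0.124) or of Day 4 (-0.82, adjusted p = 0.087).

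The Schlafen genes around Slfn9 on chromosome 11 were counted low. Slfn8 lies 10328 bp away, Slfn5 16688 bp and Slfn10-ps 36300 bp. At Day 0 Slfn8 had 12 and 9 counts in shSC against 1 and 0 in shCTSL, and Slfn5 had 12 and 13 against 3 and 2. Both were therefore lower in every shCTSL library of that day. At Day 2 Slfn5 stood at 194 and 148 counts in shSC and at 32 and 166 in shCTSL, and the shCTSL replicate that was higher for Slfn5 was also the higher for Slfn9. In the mean of the days the line difference was -1.70 for Slfn8 (SE 0.49, adjusted p = 0.145), -0.94 for Slfn5 (SE 0.42, adjusted p = 0.221) and -0.46 for Slfn10-ps (SE 0.22, adjusted p = 0.24), and none of the 3 was called. Of the 50-base words in Slfn9 transcripts, 14.2% also occur in Slfn8 or Slfn10-ps. Alignments of mapping quality under 10 were removed, so reads from such shared sequence may be missing from the counts of these genes. The other Schlafen genes had 0 to 11 counts in any library.

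**Figure D2:**
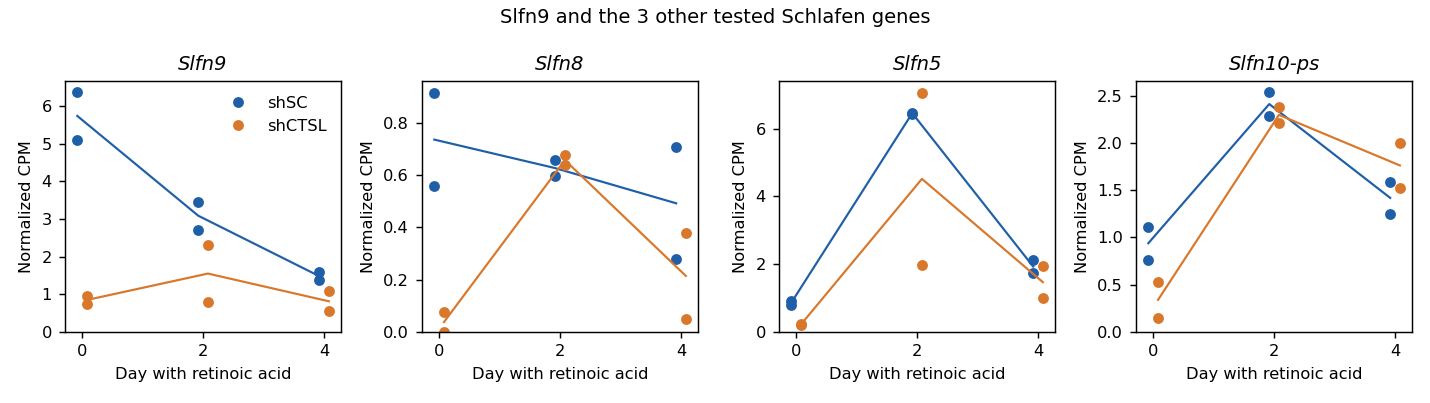
Normalized CPM (vertical axis, linear from 0, a separate scale in each panel) against the day with retinoic acid for Slfn9, Slfn8, Slfn5 and Slfn10-ps, with each library as a point and group means joined by lines, shSC in blue and shCTSL in orange. At Day 0 both shCTSL points lie below both shSC points in all 4 panels, and at Day 2 the 2 shCTSL points are far apart for Slfn9 and Slfn5.

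Nsg2, an endosomal membrane protein of neurons that takes part in receptor trafficking (chr11:31900463-31959202, plus strand), was almost uncounted in shCTSL mESCs and overlapped the control from Day 2 on. The first of its 2 promoter windows is shown because the Nsg2 ratio at Day 0 was, like that of Slfn9, one of the 2 lowest. The window is chr11:31900169-31900418 on the plus strand, outside any annotated gene, and capitals mark the reverse complement of the same interferon regulatory factor core at -221 to -212.
Nsg2 promoter: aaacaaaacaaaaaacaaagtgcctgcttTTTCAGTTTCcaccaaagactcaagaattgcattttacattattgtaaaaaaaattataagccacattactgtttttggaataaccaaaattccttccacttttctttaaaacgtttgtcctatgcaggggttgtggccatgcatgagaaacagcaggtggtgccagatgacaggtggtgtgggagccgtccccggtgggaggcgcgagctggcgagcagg
The shSC libraries held 2.29 and 1.80 CPM at Day 0, 2.62 and 2.93 CPM at Day 2 and 3.71 and 3.54 CPM at Day 4. The shCTSL libraries held 0.373 and 0.211 CPM, 3.01 and 2.51 CPM, and 4.0 and 3.69 CPM. Only the Day 0 shCTSL pair stood apart from the other line, and on the later days the lines overlapped. Pooled Day 0 counts were 7 against 59, a ratio of 0.152 with a 95% interval of 0.0584 to 0.332 for counting error only. By Day 2 Nsg2 had risen by 3.14 log2 units in shCTSL (SE 0.33, adjusted p = 1.96e-05), while shSC gave 0.45 (SE 0.22, adjusted p = 0.0943). By Day 4 the rise was 3.63 in shCTSL (SE 0.32, adjusted p = 4.01e-06). In shSC it was 0.84 (SE 0.22, adjusted p = 0.00602), and this call was lost without the second Day 0 library of that line (0.68, adjusted p = 0.0572). The mean of both lines rose by 2.23 (SE 0.20, adjusted p = 2.16e-06). Neuronal markers (Tubb3, Dcx, Stmn2, Elavl3 and Map2) summed to 319.8 to 346.0 CPM in shSC and 264.7 to 270.1 CPM in shCTSL at Day 0, lower in shCTSL as Nsg2 was, in 3 of the 5 markers by their means, with none at 0. They summed to 28.68 to 39.72 CPM over both lines at Day 4, when Nsg2 was at its highest. The part of neuronal cells in the Nsg2 level was not tested.

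Fmr1nb, the X-linked neighbour of the fragile X gene Fmr1 (chrX:66015014-66057742, plus strand), was lower in every shCTSL library than in the shSC libraries of the same day, by less each day. The shSC libraries were at 12.3 and 13.1 CPM at Day 0, at 15.3 and 16.2 CPM at Day 2 and at 10.95 and 11.16 CPM at Day 4. The shCTSL libraries were at 4.10 and 2.32 CPM, at 10.9 and 4.13 CPM, and at 8.87 and 9.54 CPM. The shCTSL mean was 25.2% of the shSC mean at Day 0, 47.6% at Day 2 and 83.3% at Day 4. The fitted line difference at Day 2 was -1.92 without the first shCTSL library of that day and -0.54 without the second. Fmr1nb rose in shCTSL from Day 0 to Day 4 (1.48, SE 0.41, adjusted p = 0.00823), a call lost without the second Day 0 library of the line (1.16, adjusted p = 0.066). In shSC the same step was -0.21 (SE 0.35, adjusted p = 0.616). The mean of both lines was close to the threshold (0.64, SE 0.27, adjusted p = 0.0495) and was lost on leaving out any of 9 libraries (0.48 to 0.68), all except the first Day 0 library and both Day 2 libraries of shCTSL. The rise in shCTSL to Day 2 (1.16, SE 0.41, adjusted p = 0.0304) was lost without the higher of the Day 2 libraries, replicate 1 (0.35, adjusted p = 0.218), without the lower of the Day 0 libraries, replicate 2 (0.84, adjusted p = 0.174), with voom (0.95, adjusted p = 0.114) and with only the compared libraries (1.2, adjusted p = 0.134). In the mean of both lines the step to Day 2 (0.73, SE 0.27, adjusted p = 0.0296) was lost with only the compared libraries (0.74, adjusted p = 0.0625) and on leaving out the first Day 0 library of shSC, either Day 2 library of shSC, the second Day 0 library of shCTSL or the first Day 2 library of shCTSL (0.35 to 0.76). Of 5 male germ cell markers, the sum at Day 0 was 64.72 to 66.23 CPM in shSC and 70.69 to 72.23 CPM in shCTSL, where 4 of the 5 were higher and Sycp3 was lower by their means. At Day 2 it was 124.5 to 134.5 CPM in shSC and 106.4 to 110.0 CPM in shCTSL, lower in shCTSL as Fmr1nb was, and its part was not tested. Gm14699 overlaps Fmr1nb on the other strand and is not in the count table. The strand setting of the counting was not given in the sources used here, so its reads cannot be told apart from those of Fmr1nb.

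R3hdml, a member of the CAP superfamily of mostly secreted proteins (chr2:163318054-163328348, plus strand), fell steeply in both lines and stayed higher in shCTSL. The shSC libraries held 4.19 and 4.89 CPM at Day 0, 1.56 and 1.53 CPM at Day 2 and 0.442 and 0.347 CPM at Day 4. The shCTSL libraries held 6.64 and 6.63 CPM, 2.34 and 2.26 CPM, and 0.812 and 0.934 CPM. The lines did not overlap on any day, and each group lay apart from the next in order of level. R3hdml fell over the 4 days in shSC (-3.48, SE 0.24, adjusted p = 6.84e-07) and likewise in shCTSL (-2.91, SE 0.21, adjusted p = 8.44e-07). The mean of both lines gave -3.19 (SE 0.16, adjusted p = 2.69e-08). Both steps on the way were called in each line. The later step in shCTSL (-1.38, SE 0.22, adjusted p = 0.00115) was lost with voom (adjusted p = 0.186) and with only the compared libraries (-1.40, adjusted p = 0.0526). At Day 4 the pooled counts were 34 against 15, a ratio of 2.16 with a 95% interval of 1.15 to 4.28 for counting error only. The shCTSL mean was 146% of shSC at Day 0, 149% at Day 2 and 221% at Day 4. 0610008F07Rik overlaps R3hdml on the other strand, with the same limit as for Fmr1nb.

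C1qtnf6, a secreted C1q and TNF related protein also called CTRP6 (chr15:78353776-78360055, minus strand), rose in both lines and was higher in shCTSL throughout. The shSC libraries were at 2.13 and 2.60 CPM at Day 0, at 5.44 and 4.81 CPM at Day 2 and at 8.17 and 8.32 CPM at Day 4. The shCTSL libraries were at 3.58 and 2.74 CPM, at 11.1 and 8.47 CPM, and at 15.5 and 13.6 CPM. At Day 0 the nearest libraries of the lines were 2.60 and 2.74 CPM, and on later days the gap was wider. By Day 4 C1qtnf6 had risen by 1.79 log2 units in shSC (SE 0.21, adjusted p = 3.47e-05), while shCTSL had risen by 2.19 (SE 0.21, adjusted p = 6.85e-06). The mean of both lines rose by 1.99 (SE 0.15, adjusted p = 5.97e-07). The step to Day 2 was 1.11 in shSC (SE 0.21, adjusted p = 0.00119) but 1.6 in shCTSL (SE 0.21, adjusted p = 8.63e-05). The later step in shSC (0.68, SE 0.19, adjusted p = 0.02) was lost on leaving out any of its 4 libraries (0.59 to 0.77). In shCTSL the later step (0.58, SE 0.18, adjusted p = 0.0335) was just under 1.5-fold and so was not called. It was called with RLE scaling (0.61, adjusted p = 0.0233), DESeq2 (0.61, adjusted p = 0.0139) and length offsets (0.63, adjusted p = 0.00877). In the mean of both lines the later step (0.63, SE 0.13, adjusted p = 0.00282) was under 1.5-fold without the second Day 2 library (0.53) or the first Day 4 library (0.58) of shCTSL. The shCTSL mean was 133% of shSC at Day 0, 191% at Day 2 and 177% at Day 4. At Day 0 the pooled counts were 74 against 70, a ratio of 1.35 with a 95% interval of 0.961 to 1.9 for counting error only.

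Set side by side, the 8 genes differed in the day on which the lines were furthest apart. The fitted difference was largest at Day 0 for Slfn9 (-2.78), Nsg2 (-2.71, SE 0.36), Fmr1nb (-1.95, SE 0.40) and Ddit4l (0.93, SE 0.22). It was largest at Day 2 for Arhgap30 (-1.46, SE 0.19) and C1qtnf6 (0.92, SE 0.19). It was largest at Day 4 for Pdlim2 (1.27, SE 0.29) and R3hdml (1.11, SE 0.29). For C1qtnf6 the widest day became Day 4 without the first Day 2 library of shCTSL (0.72 at Day 2 and 0.83 at Day 4), and for Pdlim2 it became Day 2 without the second (1.4 at Day 2 and 1.27 at Day 4). At Day 0 the libraries of the lines did not overlap for any of the 8 genes, 4 being higher and 4 lower in shCTSL, where 51.3% of all genes tested were apart in this way. At Day 2 this held for 7 genes (45.5% of all genes) and at Day 4 for 5 (61.5%). Since the rule used these values, the counts describe the choice of genes. In the mean of the days 0.27% of all genes tested were called between the lines. These 42 calls became 13 with the replicate block, 128 with DESeq2 and 185 with no filter on low counts, and 7 to 12 on leaving out any 1 library other than the Day 2 libraries of shCTSL. They became 121 without the first of those and 1217 without the second. Of 648 refitted line values for the members, 4 changed sign. Nsg2 at Day 2, at -0.014 in the fit reported, became 0.06 without the second shSC library of that day, 0.12 without the second of shCTSL and 0.03 with length offsets. Ddit4l at Day 4, at 0.082, became -0.21 without the second shSC library of that day.

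Summed markers of some other cell types also lay apart between the lines. The level of the endothelial markers Pecam1, Cdh5, Tek and Emcn was 91.91 to 94.32 CPM in shSC and 68.33 to 70.24 CPM in shCTSL at Day 0, with Emcn at 0 that day. Pecam1 made up most of that Day 0 sum (83.5 CPM in shSC and 60.4 CPM in shCTSL), with Cdh5 at 0.538 and 0.45 CPM. At Day 2 the summed level was 75.29 to 84.0 against 35.86 to 47.61 CPM, and at Day 4 142.5 to 155.6 against 102.2 to 124.7 CPM. Fibroblast markers (Col1a1, Col1a2, Thy1, Postn and Lum) were at 10.16 to 10.75 CPM in shSC and 6.528 to 8.128 CPM in shCTSL at Day 0, with Lum at 0, at 25.88 to 26.38 against 20.11 to 22.93 CPM at Day 2, and overlapped at Day 4. Visceral endoderm markers were at most 0.8423 CPM at Day 0 over both lines. At Day 2 the sums overlapped (55.05 to 63.27 CPM in shSC, 62.16 to 77.07 CPM in shCTSL), with all 5 markers higher in shCTSL by their means. At Day 4 they were apart, at 162.1 to 193.8 CPM in shSC and 199.0 to 205.2 CPM in shCTSL. By their means 3 of the 5 were then higher in shCTSL and 2 lower. The part of these cell types in the levels of the 8 genes was not tested.

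**Figure D3:**
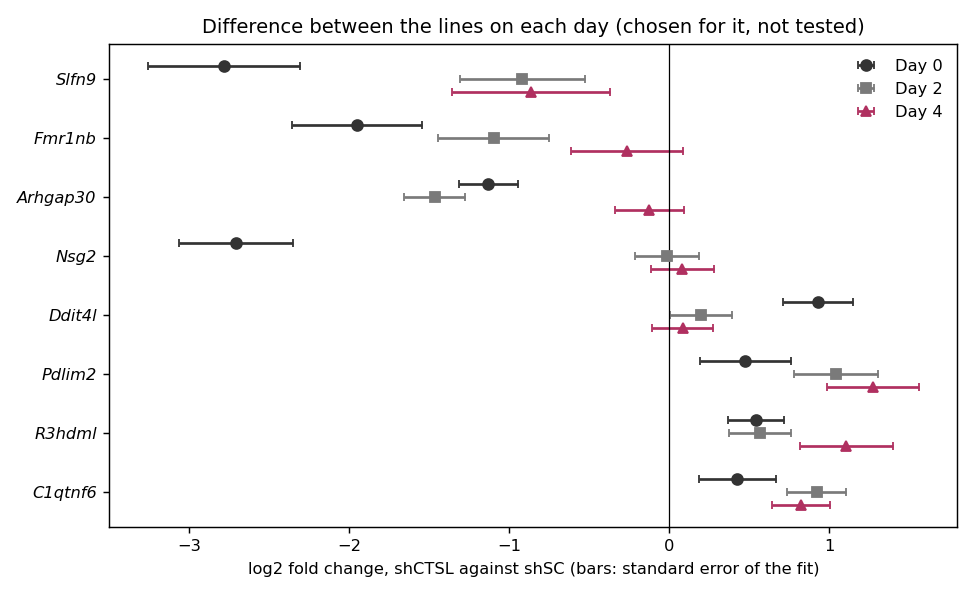
Fitted log2 fold change of shCTSL against shSC (horizontal axis) for the 8 genes at Day 0 (circles), Day 2 (squares) and Day 4 (triangles), with bars for the standard error of the fit over 2 libraries a group. Slfn9 and Nsg2 lie furthest left at Day 0 (-2.78 and -2.71), and Nsg2, Ddit4l and Arhgap30 lie within 0.13 of 0 at Day 4.

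**Figure D4:**
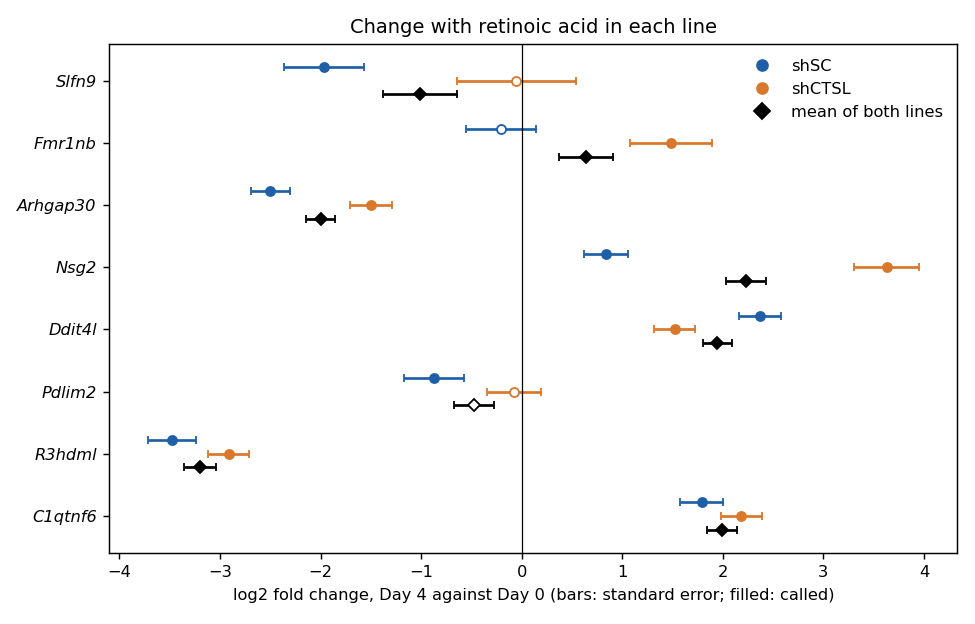
Log2 fold change from Day 0 to Day 4 (horizontal axis) for the 8 genes in shSC (blue), shCTSL (orange) and the mean of both lines (black diamonds), with bars for the standard error and filled symbols where the change was called. R3hdml lies furthest left in the mean of both lines (-3.19) and Nsg2 furthest right (2.23), and Fmr1nb is the gene whose 2 lines lie on either side of 0 (-0.21 and 1.48).

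Per kilobase of exonic sequence, the scale on which genes can be compared, Fmr1nb in shSC at Day 2 had the highest group mean (16.8 CPM per kb). Fmr1nb in shSC at Day 0 came next (13.6 CPM per kb), and then Ddit4l at Day 4 in shCTSL and shSC (13.4 and 12.7 CPM per kb). Lengths came from GENCODE M1, whereas counts were per RefSeq gene. For Ddit4l the GENCODE model begins before the RefSeq start, so its order beside Fmr1nb is not settled. Nsg2 in shCTSL at Day 0 was lowest (0.0702 CPM per kb). Slfn9 stayed below 1.22 CPM per kb outside shSC Day 0, where it had that value. Over the 8 genes a library held 2 to 1027 counts of a gene.

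The promoters of the members varied in CpG content and in the motifs they held. Promoter windows were found for 7 genes, with no entry for Pdlim2. Over 250 bases before the start, Ddit4l held 10 CpG pairs, Fmr1nb, Arhgap30 and C1qtnf6 7 each, the 2 Nsg2 windows 6 and 9, Slfn9 4 and R3hdml 3, against a median of 6 over 32851 promoters (quartiles 2 and 16). The motif of interferon regulatory factors (GAAA, any pair of bases, GAAA), like the others searched on both strands, was in 2.98% of all promoters. Among the members it was in the Slfn9 window and in the first of the 2 Nsg2 windows, but not in the second. The nuclear receptor element AGGTCA, of the kind retinoic acid receptors bind in pairs, was in the Ddit4l window and in 14.0% of all promoters. GC boxes were in the windows of Slfn9, C1qtnf6 and Ddit4l and in 32.7% of all promoters. No window of a member held the octamer ATGCAAAT (1.6% of all promoters), the E-box CACGTG (6.02%) or the TATA box TATAAA (12.4%). The matches did not overlap each other, and a match describes the letters and not binding.

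No listed relative or neighbour of the 8 genes was called between the lines. Over 7 lists of family and pathway genes and the 3 nearest counted genes on either side of each member, 80 genes were tested and edgeR called 0 between the lines in the mean of the days (background 0.27%). At an unadjusted p below 0.05 there were 17 of these 80 and 3510 of the 15532 genes tested, and DESeq2 called 0 of the 80. The median line difference was -0.94 for the 3 other Schlafen genes tested, 0.27 for 7 C1q and TNF related genes, 0.018 for 6 CAP superfamily genes and 0.087 for 6 PDZ and LIM domain genes. It was -0.012 for 6 NSG and neuronal trafficking genes and -0.082 both for 12 Ddit4 and mTORC1 genes and for 9 genes of the Fmr1 region and X-linked testis genes. It was 0.013 for 36 genomic neighbours, and 0.0017 over all genes tested. Ddit4, the closest relative of Ddit4l, differed by 0.22 (SE 0.080, adjusted p = 0.188) and Fmr1, the nearest counted gene to Fmr1nb, by -0.24 (SE 0.083, adjusted p = 0.184). Nsg1, the nearest relative of Nsg2, differed by -0.0078 (SE 0.21, adjusted p = 0.99). Sorbs3, 2787 bp from Pdlim2, differed by 0.31 (SE 0.064, adjusted p = 0.0733). The count moved from 0 to 1 (Slfn8) with no filter on low counts, to 1 (Slfn8) without the first Day 2 library of shCTSL and to 4 without the second (Slfn5, Slfn8, Sesn3 and Tstd1). Over all genes tested 0.815%, 0.761% and 7.68% were called in these fits.

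By Pearson r of log2 CPM over the 12 libraries, which share depth and day, the gene most like R3hdml was Bcam (0.987), an adhesion protein gene. C1qtnf6 was most like Mgat1 (0.989) and Krt8 (0.986), Ddit4l like Gm20219 (0.98) and Syap1 (0.979), and Arhgap30 like D1Pas1 (0.977) and Ak4 (0.962). Nsg2 was most like Opn3 (0.936) and then Ctsl (0.925), the target of the shRNA. Both Nsg2 and Ctsl rose with time and were lower in shCTSL at Day 0. At Day 4 Nsg2 was at 3.62 CPM in shSC and 3.85 CPM in shCTSL, where Ctsl was at 453 and 255 CPM. Pdlim2 was most like Tmem88 (0.936) and the third on its list was Id1 (0.896), a target of BMP signalling. Slfn9 was most like Adap2 (0.928), and Fmr1nb like Il6ra (0.833), the lowest of these leading values. These r values also use the line difference that picked the members, so they are descriptions with no test.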

How the data were processed

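The deposited table holds the authors' raw read counts per RefSeq gene for the 12 libraries. Per the labels and the study's methods, poly(A) libraries were made with a directional kit and checked with FastQC 0.11.2. Reads were aligned to mm9 with STAR 2.3.0e, alignments of mapping quality under 10 or on mitochondria were removed with SAMtools 0.1.19, and fragments were counted with featureCounts 1.6.2. The strand setting of the counting was not given in the sources used here. Intervals are exact 95% intervals on pooled counts, which cover counting error only and are no test between the lines. The study describes its 2 replicates as biological.

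The counts were filtered with filterByExpr (minimum count 10), scaled by TMM and fitted with edgeR 4.0.16 in R 4.3.3 (quasi-likelihood test, 1 mean per group, 6 residual degrees of freedom, Benjamini-Hochberg adjustment). The processing notes also name DESeq2 1.16.1 and bedtools 2.27.1, whose output was not analysed here. Alternatives were RLE scaling, DESeq2 1.42.0, limma 3.58.1 voom with sample quality weights, other filters and fold cutoffs, a replicate block, exonic length offsets, only the compared libraries, and leaving out each library. The procedure was tested on simulated data. The members and gene lists were chosen with earlier results of these data known. All members were named, with up to 4 genes of highest level and any called gene from each list (Schlafen, CAP superfamily, C1q and TNF related, PDZ and LIM domain, NSG and neuronal trafficking, Ddit4 and mTORC1, Fmr1 region and X-linked testis genes, with 1 further list not reported here), the 3 nearest counted genes on either side, and the 3 genes most alike, by r of log2(CPM + 0.5). Positions came from GENCODE M1 (mm9), which matched 20380 of 24495 symbols, and promoters from RefSeq (GRCm38.p6), placed on mm9 by exact match.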

Additional observations from a re-analysis of the deposited data

Results flagged for a closer look

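From Day 0 to Day 4 the Fmr1nb values lay on opposite sides of no change in the 2 lines: both shSC libraries were lower at Day 4 than at Day 0 (log2 fold change -0.21), and both shCTSL libraries were higher (1.48). The shSC change was not called (edgeR adjusted p = 0.616) and was 0.041 with length offsets. The difference between the lines in this change was not tested. It is made up of the line differences at Day 0 (-1.95) and Day 4 (-0.26), the kind of value that picked Fmr1nb, so it describes that choice.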

How the results depend on the processing

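The count of members called from Day 0 to Day 4 in the mean of both lines was 7, became 6 with a filter of 1 CPM in 2 libraries and 8 with length offsets, and ran from 5 to 7 on leaving out 1 library. Counts outside 1.5 times the reported ones came mainly from the cutoff of a log2 fold change of 1.5, which by its construction calls fewer genes. To Day 2 it left 1 call in shSC, 3 in shCTSL and 2 in the mean of both lines, and from Day 2 to Day 4 it left 2, 0 and 1. Voom with sample quality weights left 3 calls in shCTSL to Day 2 and 0 from Day 2 to Day 4, and fitting only the compared libraries also left 0 there. On leaving out 1 library, calls from Day 2 to Day 4 numbered 2 to 5 in shCTSL and 3 to 5 in the mean of both lines. List genes and neighbours called between the lines were 1 with no filter on low counts and 0 to 4 on leaving out 1 library. The cause was not tested.

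Direction changed only in values that were not called. Leaving out 1 library moved Slfn9 to Day 2 between -0.48 and 0.32 in the mean of both lines and between -0.052 and 1.5 in shCTSL, and Slfn9 from Day 0 to Day 4 in shCTSL between -0.62 and 0.38. It moved Pdlim2 to Day 2 between -0.26 and 0.10 in the mean of both lines and between -0.21 and 0.56 in shCTSL, and from Day 2 to Day 4 in shCTSL between -0.64 and 0.15. Fmr1nb from Day 2 to Day 4 moved between -0.38 and 0.30 in the mean of both lines and between -0.24 and 1.13 in shCTSL. Slfn9 to Day 2 in the mean of both lines, at 0.025, was -0.080 with voom and -0.20 with length offsets. Fmr1nb from Day 2 to Day 4 in the mean of both lines, at -0.094, was 0.025 with voom and 0.092 with length offsets, and from Day 0 to Day 4 in shSC it was 0.041 with length offsets.

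No pairing of libraries by replicate number was seen: the deviations of same-numbered libraries correlated at -0.465 to 0.257 over 15 pairs of groups (median -0.0512). The labels give no batch, and a shared preparation of same-numbered libraries was not tested. With the replicate block no call of a member changed, and Slfn9 to Day 2 in the mean of both lines became -0.0032. Depth limits Slfn9 and Nsg2 in shCTSL at Day 0 and R3hdml at Day 4, where libraries held 2 to 19 counts.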

Other observations

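From Day 0 to Day 4, over which LIF was withdrawn, retinoic acid was added and embryoid bodies formed, 34.2% of all genes tested were called higher and 29.5% lower in the mean of both lines, and the counts of relatives of the 8 genes are given beside that background. Of the CAP superfamily list 4 of 6 rose and 1 fell, while R3hdml fell by 3.19 log2 units: Crispld2, a secreted matrix protein gene, rose by 6.59 (SE 0.14, edgeR adjusted p = 1.54e-10) and Crispld1 by 1.77 (SE 0.20, adjusted p = 1.33e-05). Of the NSG and neuronal trafficking list 4 of 6 rose, as Nsg2 did, with Nsg1 at 2.80 (SE 0.23, adjusted p = 1.11e-06), the AMPA receptor adaptor gene Grip1 at 2.94 (SE 0.11, adjusted p = 3.38e-09) and the vesicle protein gene Syt1 at 3.14 (SE 0.35, adjusted p = 1.28e-05). The PDZ and LIM domain list had 3 of 6 higher and 1 lower, with Pdlim7 at 0.86 (SE 0.078, adjusted p = 2.6e-06).

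Of the Ddit4 and mTORC1 list 4 of 12 rose and 4 fell. Ddit4 rose by 1.52 (SE 0.10, adjusted p = 2.39e-07), beside 1.95 for Ddit4l, and Tsc2, which restrains mTORC1, gave -0.62 (SE 0.11, adjusted p = 0.000436). The C1q and TNF related list had 2 of 7 each way, the Fmr1 region and X-linked testis list 5 of 9 higher and 2 lower, and the genomic neighbours 15 of 36 higher and 7 lower. Fmr1 fell by 0.77 (adjusted p = 5.11e-05) and the X-linked testis gene Tex11 rose by 1.32 (SE 0.13, adjusted p = 3.89e-06). Of the Schlafen list 2 of 3 rose, Slfn5 by 1.94 (SE 0.57, adjusted p = 0.00955) and Slfn10-ps by 1.54 (SE 0.29, adjusted p = 0.000688). In shSC Slfn5 was highest at Day 2 (6.437 and 6.475 CPM) and was at 2.12 and 1.73 CPM at Day 4. Slfn9 fell in the mean of both lines (-1.01), a call lost on leaving out single libraries, and its change in shCTSL was -0.053.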
